A study of Drosophila melanogaster with 2 samples.

Results

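The 73 genes of the fly annotation whose symbol starts with mRpL or mRpS encode proteins of the mitochondrial ribosome, 47 of the large and 26 of the small subunit. They were taken by symbol from 18164 annotated genes, and all 73 carry a RefSeq product name of a mitochondrial ribosomal protein. The protein whose binding was mapped is CG4707, which RefSeq lists as an uncharacterized protein, carried by a transgenic Drosophila melanogaster line as a fusion with GFP at its C terminus. Chromatin immunoprecipitation with sequencing (ChIP-seq) was done on whole embryos, male and female pooled, aged 0 to 14 h. There was 1 group of 2 biological replicates, numbered 2 and 3, and no second condition, so that nothing here is a response to a treatment. A free-text label calls these libraries input controls, whereas the assay and antibody labels describe ChIP-seq and a separate control is named. They were read as ChIP libraries. Whole embryos mix all tissues, so the cell type in which a site was occupied is unknown. Each replicate and the pooled reads gave 30000 regions, of which the authors passed 3470 pooled peaks by reproducibility. Read depth is unknown, because only lists of regions were used. A gene is called bound when the summit of one of the 3470 peaks lies within 500 bp of any of its annotated transcription start sites (TSSs). All coordinates are on dm6.

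Mitochondria carry their own ribosomes, which make the few proteins encoded in mitochondrial DNA, all of them membrane subunits of the respiratory chain and ATP synthase. Their RNA comes from the mitochondrial genome, but all their proteins are encoded in the nucleus, made in the cytosol and imported. The promoters of these nuclear genes are housekeeping promoters, active in nearly every cell. In flies such promoters often lie between a pair of genes that are read in opposite directions, called head-to-head genes.

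Of the 73 genes, 12 (16.4%) were bound. The share was 10.5% over all 18164 genes and 12.0% over 13945 protein-coding genes. A further 33 had no peak past the threshold but a weaker pooled region within 500 bp of a TSS. The remaining 28 had no pooled region there. In all, 45 of 73 (61.6%) lay near some pooled region, against 43.3% of all genes. These were 37 of 53 members with a head-to-head neighbour and 8 of 20 others, the latter a share no higher than that of all genes. No share near a pooled region is given for head-to-head or protein-coding genes at large, so the excess cannot be assigned to the group itself. The subunits were alike in their bound shares, with 4 of 26 small subunit genes (15.4%) and 8 of 47 large subunit genes (17.0%) bound. Among the 1735 highest peaks alone, 10 of 73 members (13.7%) were bound beside 5.56% of all genes, a wider gap than with all peaks. With a 250 bp window the gap was narrower, at 11.0% beside 7.93%. Neither setting has a share of head-to-head genes beside it. The design has no second group of samples, so these shares are given as descriptions without a test.

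The sequence under 3 of the bound promoters is shown first, as examples of summits in intergenic sequence between the start sites of head-to-head genes. The summits at mRpL24, mRpS2 and mRpS7 also lay in such sequence. The sequences shown span 100 bp on each side of the summit. They are read on the plus strand of the Release 6 genome, in the RefSeq copy. Capitals mark ACAGTG, or its complement CACTGT. This string was found earlier to be frequent at the summits of these same data. The promoter shared by mRpS23 and CenG1A, the highest of the group, holds a pair of copies, and those of mRpS10 and mRpL20 hold none.
mRpS23, chr2L:13835345-13835545: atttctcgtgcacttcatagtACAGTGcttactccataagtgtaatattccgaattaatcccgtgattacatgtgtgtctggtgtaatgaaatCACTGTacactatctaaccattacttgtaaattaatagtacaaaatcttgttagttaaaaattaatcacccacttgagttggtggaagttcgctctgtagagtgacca
mRpS10, chr3R:15229433-15229633: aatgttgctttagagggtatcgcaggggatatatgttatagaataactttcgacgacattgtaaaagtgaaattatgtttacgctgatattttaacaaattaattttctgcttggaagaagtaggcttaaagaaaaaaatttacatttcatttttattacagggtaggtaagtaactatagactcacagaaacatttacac
mRpL20, chr3L:13018043-13018243: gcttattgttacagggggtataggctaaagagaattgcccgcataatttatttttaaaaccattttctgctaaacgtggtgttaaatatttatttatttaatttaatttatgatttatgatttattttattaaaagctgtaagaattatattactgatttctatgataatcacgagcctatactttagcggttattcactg

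At 3 more bound promoters the string occurred once, and 30 bases around each copy are shown on the strand that spells ACAGTG. The copy at mRpL51 starts 48 bp inside the gene. The copy at mRpL48 starts 1 bp after its TSS. The copy at mRpS2 lies 224 bp upstream of that gene, at the start of Mon1 on the other side.
mRpL51, chr2L:8517315-8517344, plus strand: agataattgtaaACAGTGcctggaaatggg
mRpS2, chr2L:4850626-4850655, plus strand: cttctgcttcggACAGTGttgggaaatcca
mRpL48, chr2L:1710451-1710480, plus strand: atggagccggcaACAGTGtggctgcacgcc

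ACAGTG thus occurred within 100 bp of the summit at 4 of the 12 bound members (33.3%), on either strand. Within 50 bp it occurred at 2 of 12, beside 15.7% of promoter peaks. Within 100 bp, it occurred at 6 of 13 bound members with replicate 2 alone and at 4 of 12 with replicate 3 alone. No background share is given for these replicate lists. In the 100 bp window of the pooled list, ACAGTG occurred at 399 of all 1569 promoter peaks (25.4%), and at 12.2% of 7104 promoter regions below the threshold. Among the 33 members with a weaker region it occurred at 5 (15.2%). The longer strings CACTGTGC and ACAGTGGG, which contain its complement or the string itself and were found in the same way, occurred at 0 of the 12. They were present at 8.86% and 8.29% of promoter peaks. The 6-mer did not follow the height of these 12 peaks, since the peaks of ranks 60, 72 and 222 over the genome had none within 100 bp.

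The small subunit genes are taken first. mRpS23, which encodes a subunit protein found in mitochondrial and not in bacterial ribosomes, had the highest peak of the group. Its region on 2L ran from 13835302 to 13835624, with a signal of 1400 and rank 40 of 3470. The signal is the value of the authors' caller, in its own unit, and is used only within a list. The summit lay in intergenic sequence, 373 bp upstream of mRpS23 and 119 bp upstream of CenG1A, which encodes a GTPase-activating protein of the Arf family. In replicate 2 the region nearest this summit had rank 33 and in replicate 3 rank 45, each among 30000. Both replicates thus placed it among their highest regions.

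mRpS10 encodes a small subunit protein with a bacterial counterpart. Its peak on 3R, from 15229387 to 15229671, had a signal of 1173 and rank 60. The summit lay almost midway between start sites that are 257 bp apart, 132 bp upstream of mRpS10 and 125 bp upstream of Art3, which encodes a protein arginine methyltransferase. The ranks were 59 in replicate 2 and 64 in replicate 3.

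mRpS2 and mRpS7 also have bacterial counterparts, and their peaks were weaker. The peak of mRpS2 on 2L, from 4850370 to 4850749, had a signal of 215 and rank 1346. Its summit lay 141 bp upstream of mRpS2 and 81 bp upstream of Mon1, whose protein helps to activate Rab7 on endosomes. The ranks were 1039 and 1631 in replicates 2 and 3. The peak of mRpS7 on 2L, from 10386320 to 10386699, had a signal of 128 and rank 3080, near the end of the list. Its summit lay 152 bp upstream of mRpS7 and 248 bp upstream of Cdk1, the kinase that drives entry into mitosis. It ranked 2718 in replicate 2 but 5052 in replicate 3, beyond the 3470 highest regions of that replicate.

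**Figure D1:**
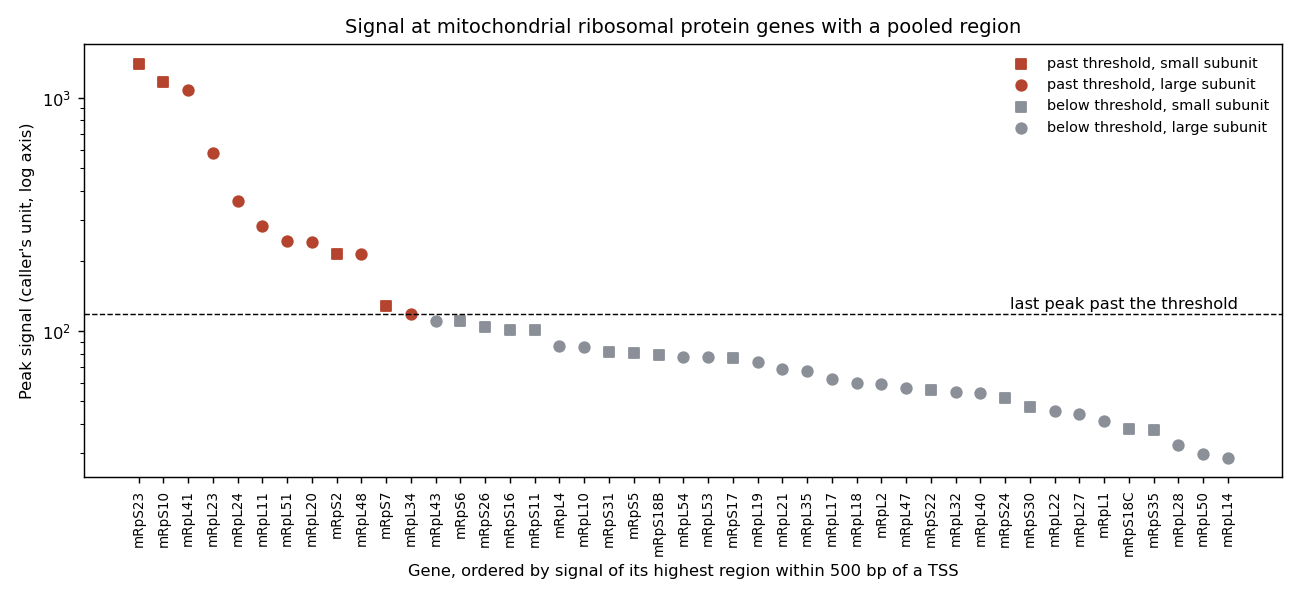
Peak signal, in the caller's own unit on a log axis, of the highest pooled region within 500 bp of a TSS, for the 45 mitochondrial ribosomal protein genes that had one. Squares are small and circles large subunit genes, and the dashed line is the signal of the last peak past the threshold, 118, on which mRpL34 lies. Signals fall from 1400 at mRpS23 to 28.7 at mRpL14 with no gap at the threshold.

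Among large subunit genes, mRpL41 had the highest peak. It lay on 2R from 15217608 to 15217917, with a signal of 1078 and rank 72, and 134 bp upstream of mRpL41. The ranks in replicates 2 and 3 were 69 and 77. It was the 1 bound member whose peak served no other protein-coding gene. A non-coding gene on the same strand, lncRNA:CR44463, had its TSS within the window, with the summit 444 bp inside it. With mRpS23 and mRpS10 it made 3 of 73 members bound by the 100 highest peaks. These peaks bound 66 of 13945 protein-coding genes, and no share of head-to-head genes is given for them.

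The next were mRpL23 and mRpL24, whose bacterial counterparts sit at the exit of the tunnel through which the new protein leaves. The peak of mRpL23 on 3L, from 2373472 to 2373755, had a signal of 578 and rank 222. It ranked 198 in replicate 2 and 250 in replicate 3. Its summit was the nearest to a member's own TSS, 48 bp inside mRpL23 in an exon outside the coding sequence. CG9004 started 98 bp away from it in the opposite direction. The peak of mRpL24 on 2L, from 4945410 to 4945604, had a signal of 362 and rank 577, with ranks of 634 and 574 in the replicates. It lay 138 bp upstream of mRpL24 and 80 bp upstream of betaggt-I, a subunit gene of the geranylgeranyl transferase that attaches a lipid to proteins.

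mRpL11, whose bacterial counterpart forms the base of the stalk that recruits translation factors, had a peak on 3R from 14511118 to 14511612. The signal was 283 and the rank 872. The replicates placed it further apart than any peak above it, at rank 315 in replicate 2 and 1062 in replicate 3. Its summit lay 314 bp upstream of mRpL11 and 64 bp upstream of the nearest TSS of HtrA2. It fell in an exon of HtrA2 outside the coding sequence, since that gene has another TSS further upstream. HtrA2 encodes a serine protease of the mitochondrial intermembrane space.

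The peaks of mRpL51, mRpL20 and mRpL48 had signals of 243, 241 and 213. That of mRpL51 lay on 2L from 8517116 to 8517495, 74 bp inside the gene and 105 bp upstream of Uba4, which acts in the thiolation of tRNAs. That of mRpL20 lay on 3L from 13017953 to 13018332, 276 bp upstream of the gene and 123 bp upstream of Icmt, which methylates proteins that carry a prenyl lipid. That of mRpL48 lay on 2L from 1710217 to 1710596, 55 bp upstream of the gene and 14 bp inside CG17660. All 3 stood among the 3470 highest regions of each replicate. Their ranks in replicates 2 and 3 were 1597 and 894 for mRpL51, 1090 and 1246 for mRpL20, and 1120 and 1893 for mRpL48.

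The last bound member, mRpL34, rests on the last peak of the list. It lay on 2R from 16098350 to 16098729 with a signal of 118 and rank 3470 of 3470. Its summit lay 408 bp upstream of mRpL34, and 24 bp inside Dg, which encodes the matrix receptor dystroglycan. Another pooled summit, below the threshold, lay upstream of mRpL34 and nearer to its TSS. The peak on Dg ranked 2361 in replicate 2 and 7484 in replicate 3. The members just below the threshold were mRpL43 (signal 110, rank 3818) and mRpS6 (signal 110, rank 3856). The call at mRpL34 and its absence at these genes thus differ by little in signal.

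The replicates can be compared gene by gene. In the 3470 highest regions of replicate 2, 13 of 73 members (17.8%) were bound, and 10.9% of all genes. In those of replicate 3, 12 of 73 (16.4%) were bound, and 10.3% of all genes. All 12 members bound by a thresholded peak were bound in replicate 2, and 10 in replicate 3, the exceptions being mRpS7 and mRpL34. No other member was bound in both, since mRpS6 was added in replicate 2 alone and mRpL43 and mRpS26 in replicate 3 alone. Over all bound genes, 1421 of 1902 (74.7%) were bound in both replicate lists. Summits of the replicates lay at most 51 bp from the pooled summit at the 12 members. The pooled list holds the reads of both replicates, so this is not independent of them.

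**Figure D2:**
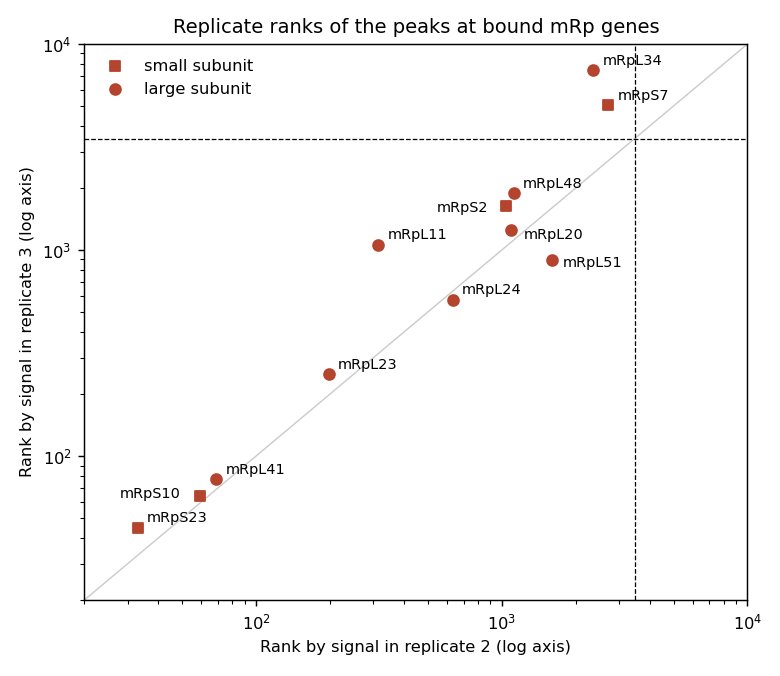
Rank by signal, among 30000 regions each and on log axes, of the replicate 2 and replicate 3 regions nearest to the 12 peaks at mitochondrial ribosomal protein (mRp) genes. Dashed lines stand at rank 3470 and the grey line marks equal ranks. Only mRpS7 and mRpL34 lie beyond rank 3470, both in replicate 3.

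The peaks of this group belonged mostly to pairs of genes. At 11 of the 12 bound members the same peak lay within 500 bp of another protein-coding gene, in each case a head-to-head neighbour. Over 1675 bound protein-coding genes the share was 44.1%, and over 66 bound cytosolic ribosomal protein genes 45.5%. Among bound protein-coding genes that have a head-to-head neighbour within 500 bp, it was 87.5% of 719. The summit was closer to the neighbour's TSS than to the member's at 8 of the 11 shared peaks. Those 8 neighbours were CenG1A, Art3, betaggt-I, HtrA2, Icmt, Mon1, CG17660 and Dg. At Art3 the difference was slight. The summit was closer to the member at mRpL23, mRpL51 and mRpS7. Over all pairs of genes with a shared peak the share closer to the neighbour is even by construction, since each gene is the neighbour of the other. Cytosolic ribosomal protein genes were unlike this, with the summit closer to the neighbour at 0 of 30 shared peaks.

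Over the 11 shared peaks the median distance was 141 bp from the member's TSS and 98 bp from the neighbour's. With mRpL41 included, the median distance from the member's TSS was 139.5 bp, with a range of 48 to 408 bp. It was 133 bp over bound protein-coding genes and 13.5 bp over bound cytosolic ribosomal protein genes. Within 50 bp of the own TSS lay the summits of 1 of 12 members, 22.7% of bound protein-coding genes and 62 of 66 bound cytosolic ribosomal protein genes (93.9%). Of the 12 summits, 10 (83.3%) lay upstream of the member, beside 76.3% of 1675 bound protein-coding genes. By annotation, 7 lay in intergenic sequence and 5 in an exon outside the coding sequence, at mRpL23 and mRpL51 in the member itself and at mRpL11, mRpL48 and mRpL34 in the neighbour. No summit lay in an intron or a coding exon. Shares over all bound genes are not given for these places.

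**Figure D3:**
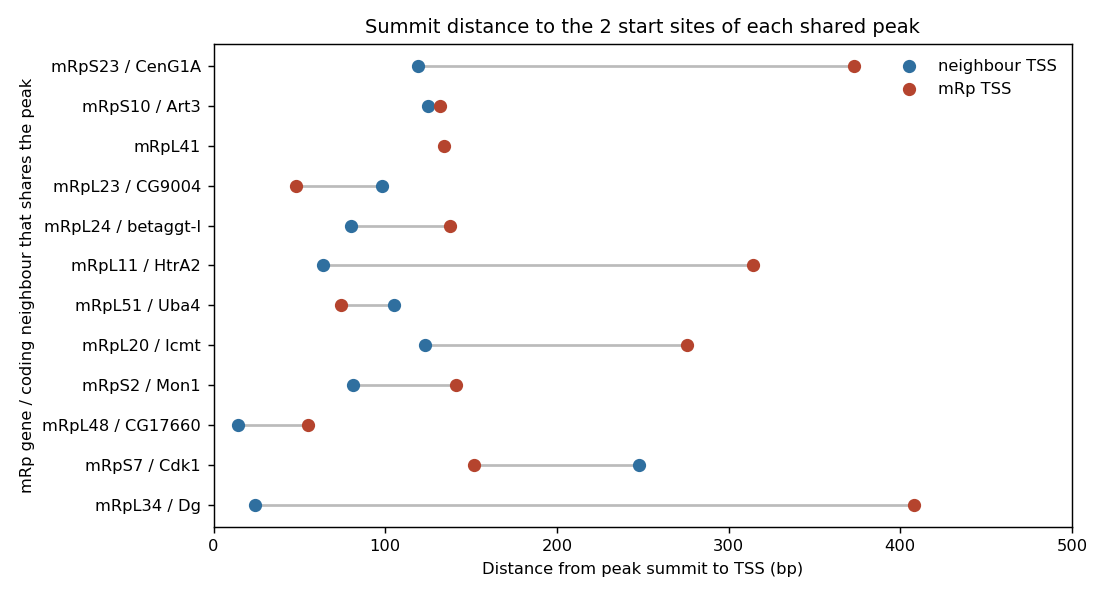
Distance in bp from the peak summit to the TSS of the mRp gene (red) and of the protein-coding neighbour that shares the peak (blue), for the 12 bound genes in order of signal. The blue point is nearer to 0 in 8 of 11 pairs, and mRpL41 has no coding neighbour.

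Head-to-head position was frequent in the whole group, bound or not. A protein-coding TSS on the opposite strand lay within 500 bp upstream of 53 of 73 members (72.6%), against 27.4% of 13945 protein-coding genes. The median distance between the paired start sites was 264 bp in the members and 244 bp in all such genes. No member faced another member or a cytosolic ribosomal protein gene. Among the 53 head-to-head members 11 were bound (20.8%), beside 18.8% of all 3815 head-to-head protein-coding genes. Among the 20 others 1 was bound (5.0%), beside 9.44% of 10130 other protein-coding genes. Among head-to-head genes the members were thus bound at nearly the share of the whole class, and the single bound gene outside it is mRpL41. No test of these shares was made.

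**Figure D4:**
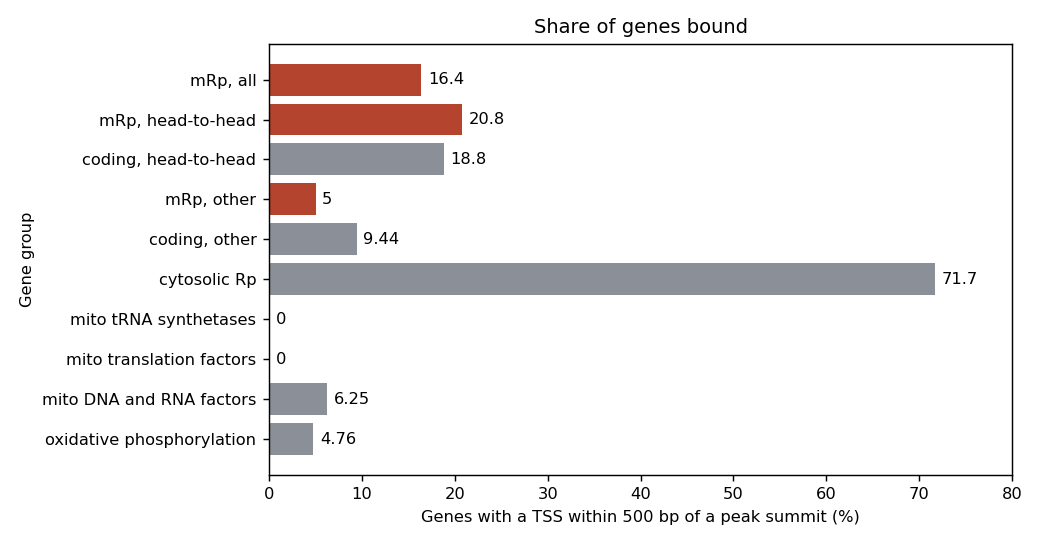
Share of genes, in percent, with a TSS within 500 bp of the summit of one of the 3470 peaks, for mRp genes (red) and other gene groups (grey), with the value at each bar. The head-to-head mRp genes (20.8%) stand next to all head-to-head coding genes (18.8%), far below the cytosolic ribosomal protein genes (71.7%).

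The arms of the genome held different shares of the bound members. On 2L 6 of 12 members were bound, beside 10.2% of all genes there. On 2R the count was 2 of 12, on 3L 2 of 17 and on 3R 2 of 21, beside 10.6% to 10.8% of genes. On X it was 0 of 11, beside 10.1% of genes, and 3 of the 11 lay near any pooled region, beside 41.5% of genes there. None of the 73 lies on chromosome 4. Each arm holds few members, and these counts carry no test.

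At the 33 members with a pooled region below the threshold, the signal ran from 28.7 to 110 with a median of 62.2. The median was 47.8 over 7104 promoter regions below the threshold. The member values take only the highest region of each gene, whereas the 7104 hold every such region. The medians are thus of unlike sets. Of the 33 regions, 24 (72.7%) also served another protein-coding gene, beside 11 of 12 (91.7%) at the bound members, and at 15 of these 24 the summit was closer to the neighbour. The median distance from the member's TSS was 113 bp, and 16 of the 33 summits lay within 100 bp of it, beside 3 of 12 bound ones. Only the highest region of each gene was counted. At mRpL43, mRpS26, mRpS31 and mRpS24 another pooled summit lay nearer to the TSS, and at mRpL43 and mRpS26 it lay within 100 bp. No share over all promoter regions is given beside these counts. Of the 33 summits, 16 were intergenic, 12 in an exon outside the coding sequence, 2 in an intron (mRpS5 and mRpL47) and 3 in a coding exon (mRpL1, mRpS35 and mRpL14). After mRpL43, which faces CG30183, and mRpS6, which faces Cip4, the highest were mRpS26 (signal 104, 266 bp upstream) and mRpS16 (101, 85 bp upstream and 12 bp upstream of cg). Then came mRpS11, the counterpart of a bacterial protein of the small subunit platform (101, 5 bp upstream, and 52 bp upstream of Ns1). mRpL4 and mRpL10 had signals of 86.1 and 85.5 with no coding neighbour within the window. The region of mRpS31 (81.6) lay 475 bp upstream of it and 18 bp inside hzg. The other 25, in falling order of signal, were mRpS5, mRpS18B, mRpL54, mRpL53, mRpS17, mRpL19, mRpL21, mRpL35, mRpL17, mRpL18, mRpL2, mRpL47, mRpS22, mRpL32, mRpL40, mRpS24, mRpS30, mRpL22, mRpL27, mRpL1, mRpS18C, mRpS35, mRpL28, mRpL50 and mRpL14.

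Just outside the window, 2 members had a thresholded peak beyond 500 but within 1000 bp. These were mRpS18B, 700 bp downstream of a peak of signal 416, and mRpL2, 755 bp downstream of one of signal 121. Over the 61 members that were not bound, the nearest peak lay at a median of 8087 bp, and 32 had one within 10 kb. The same values over other genes are not given, so these distances cannot be called near or far.

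The 28 members with no pooled region within 500 bp comprised 19 large and 9 small subunit genes. The large subunit genes were mRpL3, mRpL9, mRpL12, mRpL13, mRpL15, mRpL16, mRpL30, mRpL33, mRpL36, mRpL37, mRpL38, mRpL39, mRpL42, mRpL44, mRpL45, mRpL46, mRpL49, mRpL52 and mRpL55. The small subunit genes were mRpS9, mRpS14, mRpS18A, mRpS21, mRpS25, mRpS28, mRpS29, mRpS33 and mRpS34. They include mRpL12, the stalk protein that binds translation factors in bacteria, and mRpS29, whose human counterpart is also known as the apoptosis factor DAP3. Their nearest pooled summit lay at 533 to 15525 bp, with a median of 2247 bp. In 1 replicate or the other, 12 of the 28 had a region of any signal within 500 bp. A missing region in a list of fixed length says that other places ranked higher, not that the protein was absent.

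Other genes of mitochondrial gene expression held few thresholded peaks. The mitochondrial aminoacyl-tRNA synthetases, which charge the tRNAs used by these ribosomes, were bound in 0 of 15 cases, and mitochondrial translation factors in 0 of 9. Among 16 genes of mitochondrial DNA and RNA handling, 1 was bound, mtSSB, whose protein coats single-stranded mitochondrial DNA. Its peak had a signal of 280 and lay 276 bp upstream. The mitochondrial ribosomal protein genes tko and bonsai, which carry other symbols, were not bound, nor were mTerf3 and mTerf5. Of 84 nuclear genes of oxidative phosphorylation, 4 (4.76%) were bound. These were ND-ASHI, ND-MWFE, COX5A and ATPsynF, with signals of 271, 119, 131 and 126, each sharing its peak with another gene. Each of these shares lay below the 10.5% of all genes, but most of the lists are too small to set a count of 0 apart from that rate. Shares near any pooled region were not low, at 8 of 15 synthetases (53.3%), 8 of 16 DNA and RNA factors and 44 of 84 oxidative phosphorylation genes (52.4%), beside 43.3% of all genes. Of the translation factors, 2 of 9 (22.2%) lay near one. Cytosolic ribosomal protein genes were bound in 66 of 92 cases (71.7%).

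The promoters of the members also shared a string of bases. The core-promoter E-box CAGCTG, a palindrome, occurred in 40 of 73 promoters (54.8%), taken from 250 bp before to 50 bp after the most upstream TSS. The share was 17.7% over all protein-coding promoters, 25.1% over head-to-head ones and 9.78% over 92 cytosolic ribosomal protein genes. It was 7 of 12 (58.3%) in bound members and 33 of 61 (54.1%) in the others. Head-to-head members held it at 54.7% and the 20 other members at 55.0%. Of its 45 copies, 36 started within 50 bp of the TSS, and the median start was 2 bp after it. The E-box was thus frequent near the start sites of the members whether or not CG4707 was found there.

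Copies at 3 bound members (mRpL11, mRpS2 and mRpL48) and at 4 with no pooled region are shown, each read on the strand of the gene with the E-box in capitals. They were picked to show copies near the TSS. Of all copies, 6 of 9 in bound members and 30 of 36 in the others started within 50 bp of the TSS. Copies further upstream in bound members, at mRpL24, mRpL51 and mRpS2, are not shown, and that of mRpL51 is its only one.
mRpL11, chr3R:14511823-14511848, plus strand: gcaataccatCAGCTGttgctgcttc
mRpS2, chr2L:4850415-4850440, minus strand: cactacccacCAGCTGtttaccaaaa
mRpL48, chr2L:1710473-1710498, plus strand: tgcacgccatCAGCTGgtgatataac
mRpL46, chr3L:1777427-1777452, plus strand: tgccgcaaatCAGCTGttccggctct
mRpS34, chr3L:16348066-16348091, plus strand: ccagccggcaCAGCTGttcgaccttc
mRpS21, chr3R:13381792-13381817, minus strand: tgatattcatCAGCTGtttagcagta
mRpL33, chrX:4322209-4322234, minus strand: taggcgcagtCAGCTGttcttcgttc

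Other promoter motifs were less frequent in the group, and each is set beside head-to-head, all protein-coding and cytosolic ribosomal protein promoters in turn. The DNA replication-related element (DRE) TATCGATA occurred in 15 of 73 promoters (20.5%), beside 17.4%, 9.37% and 30.4%. It occurred in 2 of 12 bound members. The core of Motif 1, GGTCACAC, occurred in 8 of 73 (11.0%), beside 14.7%, 7.71% and 16.3%. GAGAG, the core of the GAGA motif, occurred in 12 of 73 (16.4%), beside 23.3%, 29.8% and 16.3%. ACAGTG occurred in 13 of 73 (17.8%), beside 17.9%, 14.0% and 20.7%. In this fixed window, 3 of 12 bound members and 10 of 61 others held it. All motifs were sought on both strands. A match is a string of letters and not evidence of a bound factor.

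**Figure D5:**
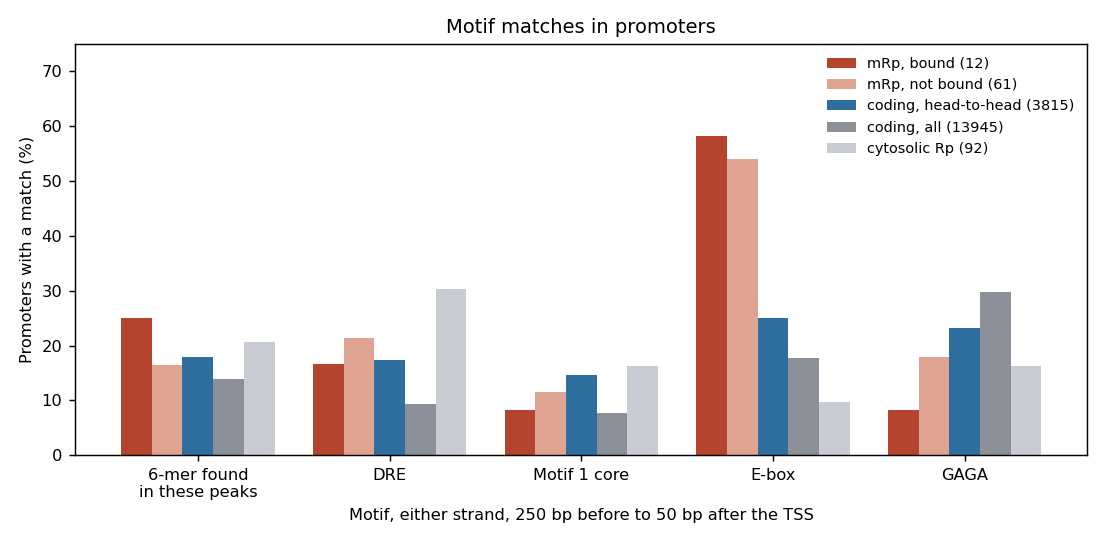
Share of promoters, in percent, with a match on either strand to each of 5 motifs, from 250 bp before to 50 bp after the most upstream TSS, for bound and other mRp genes, head-to-head and all protein-coding genes, and cytosolic ribosomal protein genes. The E-box bars of the bound (58.3%) and other (54.1%) mRp genes stand above those of the remaining groups.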

How the data were processed

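ChIP-seq of GFP-tagged CG4707 in whole embryos was deposited as region lists on dm6, per the labels. The authors deposited 30000 regions for each of 2 replicates and for the pooled reads, and 3470 peaks past a reproducibility threshold, whose signals were checked to be those of the top pooled regions. The sources used here do not give the aligner or the peak caller. The signal column deposited by the authors is a score of unstated scale, and it served only to rank regions within 1 list. Other deposited columns give the summit's distance from the region start. Depth is unknown.

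Genes and TSSs came from Ensembl release 115 without transposable elements, on the arms that hold regions, and sequence from the RefSeq Release 6 genome. The highest-signal summit within 500 bp of any TSS was assigned to each gene. Head-to-head genes have a protein-coding TSS on the opposite strand within 500 bp upstream. In a check on planted summits, 200 of 200 distances were recovered over 18164 genes.

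The members, the gene lists and the motifs were chosen with earlier results of these data known, and no test across genes was made. Named genes were all bound members with the genes sharing their peaks, up to 8 members of highest signal below the threshold, those with a peak beyond the window but within 1000 bp, and bound genes of the other mitochondrial lists. The remaining members were named in groups. Replicates are labelled biological. Alternatives were a promoter window of 250 or 1000 bp, a single TSS per gene (the most upstream), the 1735 highest peaks, each replicate alone and a 50 bp motif window. The longer E-box, the other core-promoter motifs, GCCTA and the head-to-head and cytosolic ribosomal protein backgrounds were added after the data were seen. Computation used Python 3.11.15, numpy 2.4.6 and pandas 2.3.3.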

Additional observations from a re-analysis of the deposited data

How the results depend on the processing

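The count of bound members stayed within 1.5 times of 12 under every alternative tried, at 8 with a 250 bp window (11.0% beside 7.93% of all genes), 14 at 1000 bp (19.2% beside 13.5%), 12 with the most upstream TSS (16.4% beside 8.95%), 10 with the 1735 highest peaks (13.7% beside 5.56%), and 12 to 13 with 1 replicate left out (16.4% beside 10.3% and 17.8% beside 10.9%). The 250 bp window loses mRpS23, mRpL11, mRpL20 and mRpL34, whose summits are nearer to the neighbour. The 1000 bp window adds mRpS18B and mRpL2. The stricter threshold loses mRpS7 and mRpL34. Without replicate 2, 10 of the 12 genes were shared, and without replicate 3 all 12. The count of members near a pooled region ran from 35 to 53 beside 45. The count of bound members that share a peak with another coding gene was 7 with a 250 bp window, beside 11, and 9 to 14 otherwise. The median distance from the member's TSS was 133 bp with a 250 bp window and 146.5 bp at 1000 bp, which the windows themselves limit, and 143 to 150.5 bp with 1 replicate left out, beside 139.5 bp. Members with ACAGTG numbered 2 with a 50 bp motif window, beside 4, and 3 to 6 under the other alternatives, the highest without replicate 3 and 5 with a 1000 bp window. No paired analysis was possible because there is 1 group. Depth is unknown, and a list of fixed length limits what a missing region can show.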

Other observations

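A longer form of the E-box was also frequent in the group. CAGCTGTT, on either strand, occurred in 27 of 73 mitochondrial ribosomal protein promoters (37.0%), beside 13.9% of head-to-head and 7.62% of all protein-coding promoters, and 2 of 92 cytosolic ribosomal protein promoters. It occurred in 5 of 12 bound and 22 of 61 other members. This string was chosen after the promoter copies had been read, so the shares are a description.

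The string GCCTA, or TAGGC on the other strand, was noticed on reading the sequences under the bound members. It occurred within 100 bp of the summit at 8 of 12 bound members, mRpS10, mRpL41, mRpL24, mRpL11, mRpL20, mRpS2, mRpL48 and mRpL34. It occurred at 235 of 1569 promoter peaks (15.0%), at 14.4% of 7104 promoter regions below the threshold, and at 1 of 33 members with a weaker region. The longer AGCCTA occurred at 5 of 12, beside 3.06% of promoter peaks and 0 of 33 weaker member regions. The string is 1 of 512 that could have been noticed at this length, it was chosen for its count in these 12 sequences, and no test was made.

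For 6 of the 8, 25 bases around a copy are shown on the strand that spells GCCTA, with the string in capitals.
mRpS10, chr3R:15229544-15229568, minus strand: ttttctttaaGCCTActtcttccaa
mRpL24, chr2L:4945425-4945449, minus strand: tattttacaaGCCTAcatcaagtgt
mRpL11, chr3R:14511519-14511543, minus strand: attgcctatcGCCTAtcggtagtcg
mRpL20, chr3L:13018053-13018077, minus strand: attctctttaGCCTAtaccccctgt
mRpS2, chr2L:4850574-4850598, plus strand: gaatgaataaGCCTAtcttatggtg
mRpL48, chr2L:1710383-1710407, plus strand: aacttatcggGCCTAtcgttcttcg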
